A study of Mus musculus with 28 samples.

Results

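Moxd1, Fndc5 and Colgalt2 were the 3 genes examined, out of 37074 gene names on the array. They are not cytochrome P450 genes, and they were chosen because their probes had been called well above background in livers of phenobarbital mice and not in control livers on one-colour arrays. The one-colour signals therefore chose the genes and are given here as a description, with no test. Each gene was represented by 1 probe, the A_51_P493987 probe for Moxd1, A_52_P213696 for Fndc5 and A_51_P331429 for Colgalt2, each printed as 1 spot per array. Agreement between probes of a gene could not be examined. The PB group was 3 mice that drank water with 0.05% phenobarbital (PB) over roughly 4 weeks, and the control group was 3 mice that drank water alone. All 6 were male B6C3F1 mice with a labelled age of 42 days, and all RNA came from formalin-fixed, paraffin-embedded liver blocks stored for 16 years. Every mouse was measured with 2 amounts of cDNA, called 1X and 1.5X. Each amount had 6 one-colour and 8 two-colour arrays, and 6 of the two-colour 1X arrays entered comparisons.

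Moxd1 encodes a monooxygenase related to dopamine beta-hydroxylase, a family of copper enzymes that hydroxylate their substrates in the secretory pathway. Fndc5 encodes a membrane protein with a fibronectin type III domain, whose shed outer part is the circulating peptide irisin. It is best known from skeletal muscle, where the coactivator PGC-1alpha (Ppargc1a) raises it. Colgalt2 encodes a galactosyltransferase of the endoplasmic reticulum that adds galactose to hydroxylysines of collagens and of other proteins with collagen domains. Phenobarbital acts in hepatocytes through the constitutive androstane receptor (CAR), and its best known transcriptional target in mouse liver is the P450 gene Cyp2b10.

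Probes well above background made up 44.2% to 51.9% of probes per one-colour 1X array and 28.1% to 38.5% per one-colour 1.5X array. For the two-colour arrays these shares were, in Cy3, 21.9% to 31.5% at 1X and 34.4% to 42.8% at 1.5X, and in Cy5 14.8% to 23.1% at 1X and 2.97% to 7.41% at 1.5X. All 10 hepatocyte markers were well above background on all 12 one-colour arrays. The number of arrays limits the precision, and the replicate throughout is the mouse.

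The upstream sequences of the genes are shown for the genes chosen for higher signal in PB livers. RefSeq promoters of assembly GRCm38.p6 were given for 2 of the 3 genes. The window for Moxd1 is chr10:24223267-24223516, on the plus strand, directly before the annotated gene start. The window for Fndc5 is chr4:129136749-129136869, also on the plus strand and directly before the gene. Capitals mark matches, on either strand, to the GC box GGGCGG and to the CCAAT box CCAAT; the 2 matches in Fndc5 adjoin and form 1 run of capitals.
Moxd1: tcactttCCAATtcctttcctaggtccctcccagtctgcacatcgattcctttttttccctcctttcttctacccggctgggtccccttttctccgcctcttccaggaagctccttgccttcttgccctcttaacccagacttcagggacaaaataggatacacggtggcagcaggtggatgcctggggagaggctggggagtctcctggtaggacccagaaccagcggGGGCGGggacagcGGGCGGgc
Fndc5: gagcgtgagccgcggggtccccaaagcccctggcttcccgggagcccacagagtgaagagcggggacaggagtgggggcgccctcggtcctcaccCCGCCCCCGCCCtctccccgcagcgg
Both windows held 2 matches to the GC box. At least 1 match lay within 250 bases upstream in 32.7% of all 32851 promoters; the Moxd1 window has that length and the Fndc5 window is shorter, with 121 bases. The Moxd1 window also held 1 match to the CCAAT box, found in 33.8% of promoters. The nuclear receptor half-sites AGGTCA (14.0% of promoters) and AGTTCA (11.8%), to which receptors such as CAR can bind in pairs, and the TATA box TATAAA (12.4%) had no match in these letters on either strand. The Fndc5 window was 76.0% G and C, and the Moxd1 window 58.4%.

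Fndc5 was called well above background in all 3 PB livers and in no control liver at both inputs. At 1X its processed signal was 42.2, 33.1 and 36.9 in PB mice 1, 2 and 3, against 17.1, 8.88 and 6.87 in control mice 1, 2 and 3. At 1.5X it was 100.3, 128.2 and 73.2 in the PB mice, against 13.9, 15.4 and 16.0 in the control mice. Every PB liver lay above every control liver at each input. At 1.5X the spot of control mouse 3 was not significantly above background, and its processed signal there is a value set by the scanner software. The other control spots of Fndc5 were significantly above background, a weaker call than well above background.

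Set against the array's 75th percentile on the log2 scale, the level of Fndc5 averaged -3.75 ± 0.21 in PB livers and -5.92 ± 0.84 in control livers at 1X (SD, n = 3 each). At 1.5X the level was -3.84 ± 0.50 in PB livers and -6.68 ± 0.03 in control livers (SD, n = 3 each). The measured log2 differences were 2.17 and 2.84, but the control side is only a bound, since no control array gave a signal well above background. A lower bound on the fold was therefore taken against the lowest signal called well above background on each control array, or the probe's own signal where that was higher. That lowest signal is taken over all probes, and a spot can go uncalled above it, so the bound is not a guaranteed minimum. With the scaling to the 75th percentile, the lower bound was 1.72-fold at 1X and 1.60-fold at 1.5X. The raw Fndc5 spots were dim even in PB livers: their median signals at 1X were 129, 107 and 93, against 87, 80 and 87.5 in control mice 1, 2 and 3. The negative-control spots of the 1X arrays had medians between 54 and 82.8.

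Moxd1 met the same pattern at 1X only. Its processed signal at 1X was 40.0, 78.9 and 61.0 in PB mice 1, 2 and 3, all well above background. In control mice 1, 2 and 3 it was 5.58, 6.30 and 6.01. On all 3 control arrays the background-subtracted spot was below 0, at -8.90, -8.92 and -3.22, so that the processed signal there is a small positive value set by the scanner software and not a measured level. On the log2 scale the level averaged -3.12 ± 0.61 in PB livers and -6.69 ± 0.32 in control livers (SD, n = 3 each), and the lower bound was 2.66-fold.

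At 1.5X the Moxd1 signal was 48.3, 259.4 and 65.9 in PB mice 1, 2 and 3, against 13.1, 15.7 and 18.1 in control mice 1, 2 and 3. Only PB mouse 2 passed the call, and all 3 control spots were again below 0 after background subtraction. PB livers still lay above control livers without overlap, but with 1 of 3 PB arrays called, no fold is given for this input. PB mouse 2 had the highest Moxd1 signal of all mice at both inputs, while PB mouse 1 had the lowest of the PB mice at both. The SD of the log2 level among PB livers was 1.54 at 1.5X, compared with 0.50 for Fndc5 and 0.07 for Colgalt2.

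Colgalt2 met the pattern at 1.5X only. Its processed signal at 1.5X was 143.3, 97.7 and 85.5 in PB mice 1, 2 and 3, all well above background. In control mice 1, 2 and 3 it was 30.1, 26.9 and 31.1, none of them called. All control spots of Colgalt2, at both inputs, passed the weaker call of significantly above background. The log2 level averaged -3.72 ± 0.07 in PB livers and -5.72 ± 0.16 in control livers (SD, n = 3 each), and the lower bound on the fold was 1.73-fold.

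At 1X the Colgalt2 signal was 20.8, 43.8 and 27.8 in PB mice 1, 2 and 3, against 6.16, 41.4 and 22.3 in control mice 1, 2 and 3. The groups overlapped: control mouse 2 was well above background and nearly as bright as PB mouse 2, and PB mouse 1 was not called. The log2 level averaged -4.09 ± 0.61 in PB livers and -5.10 ± 1.48 in control livers (SD, n = 3 each). At 1.5X, in contrast, control mouse 2 was the dimmest of the 3 control mice. The lowest called signal differed between arrays. The Colgalt2 spot of PB mouse 3 was called at 27.8 at 1X, on an array whose lowest called signal was 12.8. The spots of control mouse 3 and PB mouse 1 were not called at 22.3 and 20.8, where the lowest called signals were 26.4 and 32.3.

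**Figure D1:**
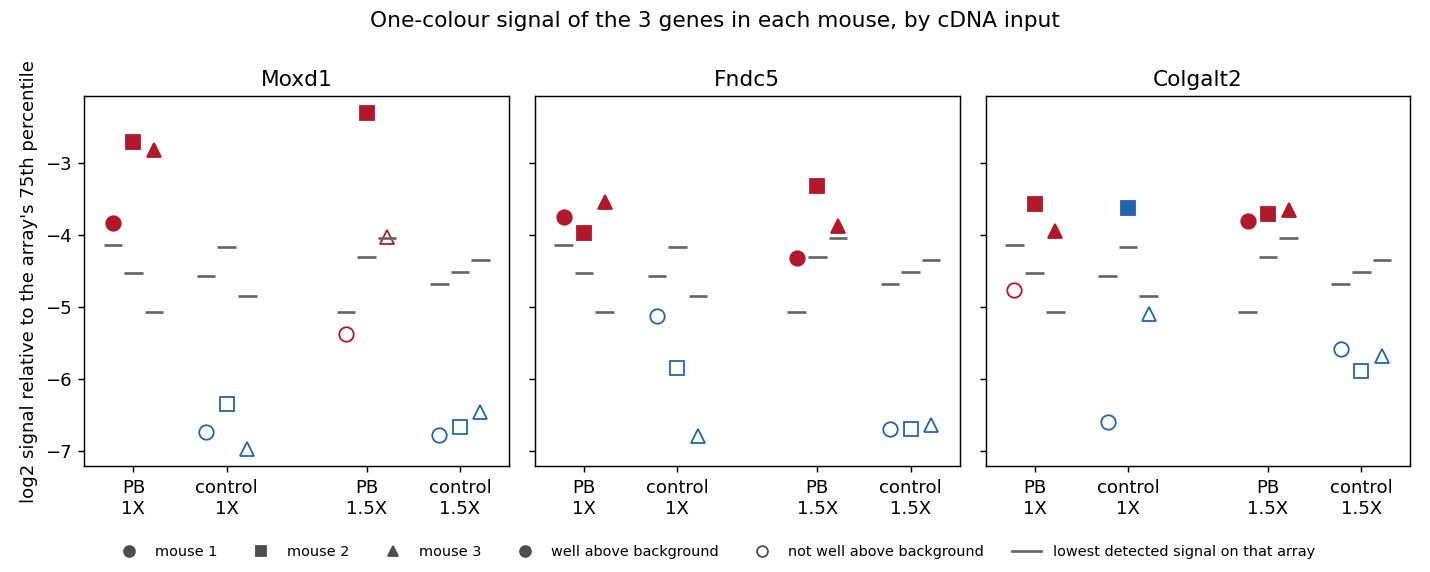
One-colour log2 signal (y axis, relative to the array's 75th percentile) of each gene in each mouse, PB left of control, at 1X and 1.5X cDNA input; filled symbols were well above background, open ones were not, and short bars mark the lowest detected signal on that array. Fndc5 has 6 filled PB symbols and no filled control symbol, Moxd1 has 4 filled PB symbols, and Colgalt2 has 5 filled PB symbols and 1 filled control symbol.

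The pattern that chose the genes was uncommon on the array. At 1X, 39 of 37074 genes (0.105%) were well above background on all PB arrays and no control array, and at 1.5X 53 genes (0.143%) were. At both inputs 6 genes (0.0162%) were, and Fndc5 is 1 of them. The opposite pattern, detection on all control arrays and no PB array, was found for 69 genes (0.186%) at 1X, 25 genes (0.0674%) at 1.5X and 1 gene (0.0027%) at both. Since the genes were taken from this pattern, these shares are given for scale only. Livers of PB mice lay above control livers without overlap for 5.49% of genes at 1X, for 6.62% at 1.5X and for 7.36% on the mean of both inputs.

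A lower bound sets a probe's signal in PB livers against the lowest called signal of the control arrays, so its size follows the brightness of the probe and does not rank the genes by change. The lowest called signal is not a strict limit of detection. At 1.5X the Moxd1 spot of PB mouse 3 was not called at 65.9, on an array whose lowest called signal was 65.2. The median bound of the genes with the pattern was 1.87-fold at 1X and 1.71-fold at 1.5X. Cyp2b10 had the largest bound at each input, 30.2-fold at 1X and 18.0-fold at 1.5X. At 1X it was followed by Cyp2b9, another P450 of the same subfamily, at 5.06-fold and by Esco2, a cohesin acetyltransferase, at 4.86-fold. The named genes with the largest bounds after Cyp2b10 at 1.5X were Tsku, a secreted leucine-rich repeat protein, at 3.62-fold and Cdca3, a cell division gene, at 3.22-fold. Over both inputs the bound of Fndc5 was 1.66-fold, beside 23.3-fold for Cyp2b10, 3.43-fold for the P450 Cyp3a44 and 3.23-fold for Blm, a DNA helicase. Cyp2c55, another P450 of the comparison, was detected in control livers as well, so it has a measured difference: its log2 level was 3.73 higher in PB livers (SE 0.23, limma adjusted p = 0.00124).

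**Figure D2:**
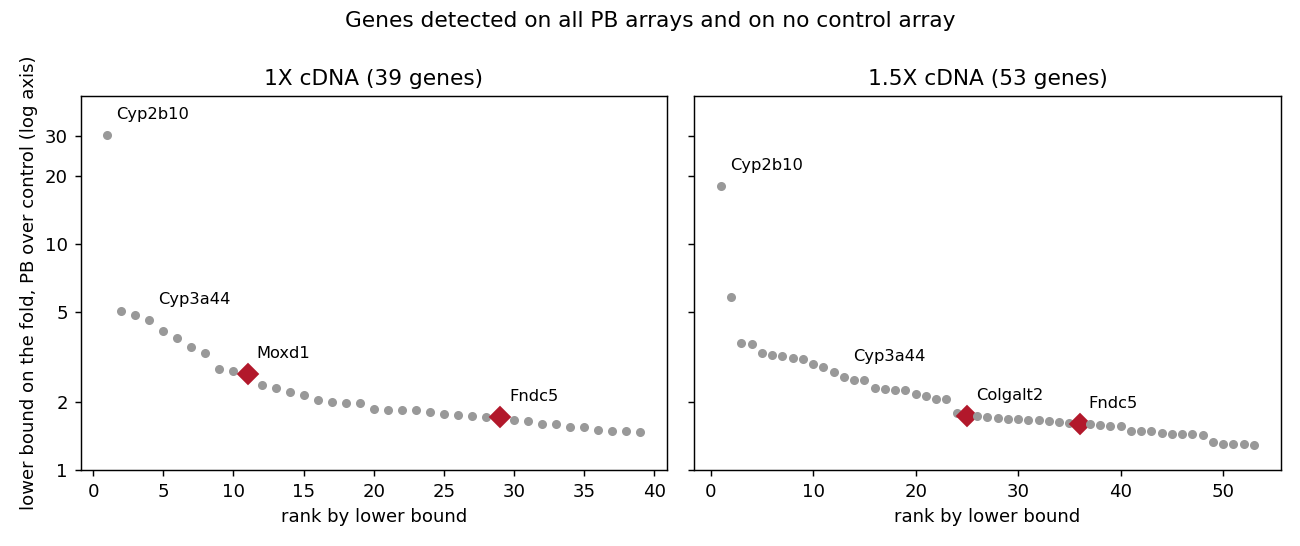
Lower bound on the fold, PB over control (y axis, log scale), of every gene well above background on all PB and no control one-colour arrays, in order of rank (x axis), at 1X (39 genes) and 1.5X (53 genes). Red diamonds mark Moxd1, Fndc5 and Colgalt2, which lie between 1.60-fold and 2.66-fold; the order follows probe brightness in PB livers and does not rank the genes by change.

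The two-colour arrays were not used to choose the genes, but they carried RNA of the same 6 mice. In these arrays each mouse was measured in both dyes, and its value was the mean of its normalized log2 Cy3 and Cy5 signals. The spots were dim here as well. At 1X each gene was well above background in 1 of 6 PB channels, the Cy3 channel of PB mouse 2 for all 3 genes, and in no control channel. None of the 3 entered the test restricted to detected genes, in which 509 of 8259 genes (6.16%) passed at 1X. Without the filter on dim probes all 37074 genes were fitted and 587 (1.58%) passed, so differences of the 3 genes are given from that fit, with p-values adjusted over all of its genes. An offset of 50 added to the signals before the logarithm makes differences of such dim spots smaller than the ratio of the signals.

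Fndc5 was higher in PB livers at 1X. Its values were 6.48, 6.46 and 6.45 in PB mice 1, 2 and 3, against 6.09, 6.18 and 6.19 in control mice 1, 2 and 3. The groups did not overlap, as for 8.32% of all genes in that direction. The log2 difference was 0.31 (95% interval 0.16 to 0.46, limma adjusted p = 0.0496), just inside the threshold of 0.05. It did not pass when any 1 of the 6 mice was left out (adjusted p between 0.0688 and 0.157), nor with mice assigned by the source names (0.55). In the Cy3 channel the processed Fndc5 signal was 85.7, 190 and 104.3 in PB mice 1, 2 and 3, against 27.9, 31.8 and 29.4 in control mice 1, 2 and 3. In the Cy5 channel it was 128, 34.6 and 64.9 in the PB mice, against 37.4, 30.1 and 95.6 in the control mice, so that here the groups overlapped.

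Moxd1 had a log2 difference of 0.38 at 1X (95% interval 0.12 to 0.64), which did not pass (limma adjusted p = 0.196, unadjusted p = 0.00814). Its values were 6.50, 6.69 and 6.16 in PB mice 1, 2 and 3, against 6.18, 5.93 and 6.12 in control mice 1, 2 and 3. PB mouse 3 fell within the range of the control mice, while PB mouse 2 was the highest, as on the one-colour arrays. Without PB mouse 3 the difference was 0.52 (adjusted p = 0.0113). Without any other mouse it did not pass (limma adjusted p between 0.226 and 0.533), and it was 0.26 without PB mouse 2 and 0.30 without control mouse 2. The processed Cy3 signal of Moxd1 was 56.7, 276 and 101 in PB mice 1, 2 and 3, against 28.6, 33.5 and 32.5 in control mice 1, 2 and 3. Its Cy5 signal was 237, 104.4 and 42.4 in the PB mice, against 38.6, 29.3 and 32.6 in the control mice. In each dye alone every PB liver was brighter than every control liver in these processed signals, of which the Cy3 spot of PB mouse 2 alone was well above background. In the normalized log2 values the Cy5 groups overlapped: PB mouse 3, at 6.05, was below control mice 1 and 3, at 6.27 and 6.22.

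Colgalt2 was 0.26 higher on the log2 scale at 1X (95% interval 0.11 to 0.42), which did not pass (limma adjusted p = 0.117, unadjusted p = 0.00306). Its values were 6.39, 6.35 and 6.44 in PB mice 1, 2 and 3, against 6.09, 6.20 and 6.10 in control mice 1, 2 and 3. The groups did not overlap in these means of both dyes. With mice numbered by the description, control mouse 2 was the highest of the 3 control mice. In Cy3 alone it was the lowest of them, at 6.00. Its Cy5 spot is on array 3, where the source names give control mouse 3. In Cy5 alone the normalized log2 value of control mouse 2, 6.40, was above those of PB mouse 1, 6.35, and PB mouse 2, 6.14. The processed Cy3 signal was 85.9, 129 and 99.1 in PB mice 1, 2 and 3, against 42.0, 32.7 and 52.1 in control mice 1, 2 and 3. The processed Cy5 signal was 60.3, 69.1 and 75.3 in the PB mice, against 36.9, 52.1 and 29.0 in the control mice.

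The log ratios deposited in the authors' value table, turned to PB over control, were positive on all 6 arrays for Colgalt2, between 0.52 and 1.80 on the log2 scale. For Moxd1 they were positive on 5 arrays and 0 on 1, with a highest value of 3.05. For Fndc5 they were likewise positive on 5 arrays and 0 on 1, with a highest value of 2.34. Averaged equally over both dye orientations they gave 1.07 for Colgalt2, 1.69 for Moxd1 and 1.22 for Fndc5. On the offset scale of the differences above, where Fndc5, Moxd1 and Colgalt2 had 0.31, 0.38 and 0.26, Cyp2b10 had 1.72 (SE 0.26, limma adjusted p = 0.00813 in the test restricted to detected genes). At 1.5X the deposited ratios of Colgalt2 were positive on 5 arrays, 0 on 1 and negative on 2, between -0.45 and 1.65. Those of Moxd1 were positive on 4 arrays and 0 on 4, with a highest value of 1.30. Those of Fndc5 were positive on 4 and negative on 4, between -0.52 and 0.56. Their averages over both dye orientations were 0.30 for Colgalt2, 0.41 for Moxd1 and 0.05 for Fndc5.

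At 1.5X the two-colour arrays showed no difference past the threshold for any of the 3 genes. Fndc5 values were 6.20, 6.18 and 6.20 in PB mice 1, 2 and 3, against 6.17, 6.22 and 6.19 in control mice 1, 2 and 3. Its log2 difference had a 95% interval of -0.12 to 0.12. Moxd1 differed by 0.04 (95% interval -0.11 to 0.20) and Colgalt2 by 0.07 (-0.09 to 0.23), and the groups overlapped for all 3 genes. The interval of Fndc5 at 1.5X lies below that at 1X, but the difference between inputs was not tested.

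No Cy5 spot of Moxd1 at 1.5X was well above background. In Cy5 the processed signals of control mice 1 and 3 lay above every PB spot, opposite to the direction in Cy3. The processed Cy3 signal was 83.5 and 29.3 in PB mouse 1, 91.5 in PB mouse 2 and 97.5 in PB mouse 3, against 23.3 in control mouse 1, 18.5 and 30.4 in control mouse 2 and 23.8 in control mouse 3. Its Cy5 signal was 25.1 in PB mouse 1, 45.7 and 32.1 in PB mouse 2 and 25.8 in PB mouse 3, against 62.4 in control mouse 1, 50.8 and 30.9 in control mouse 2 and 58.6 in control mouse 3. The raw medians of these Cy5 spots were 65 to 73.5, beside negative-control medians of 65 to 69. The Cy3 channel alone gave a log2 difference of 0.28 (limma adjusted p = 0.547, unadjusted p = 0.00424). Moxd1 was well above background in 2 of 8 PB channels, the Cy3 channels of PB mouse 1 on 1 array and of PB mouse 3, and in no control channel; Fndc5 and Colgalt2 were in none. In that set limma passed 0 of 1663 detected genes (0%), with 29 at an unadjusted p under 0.05, and 0 of 37073 genes (0%) without the filter. Every PB liver lay above every control liver for 4.08% of genes there.

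**Figure D3:**
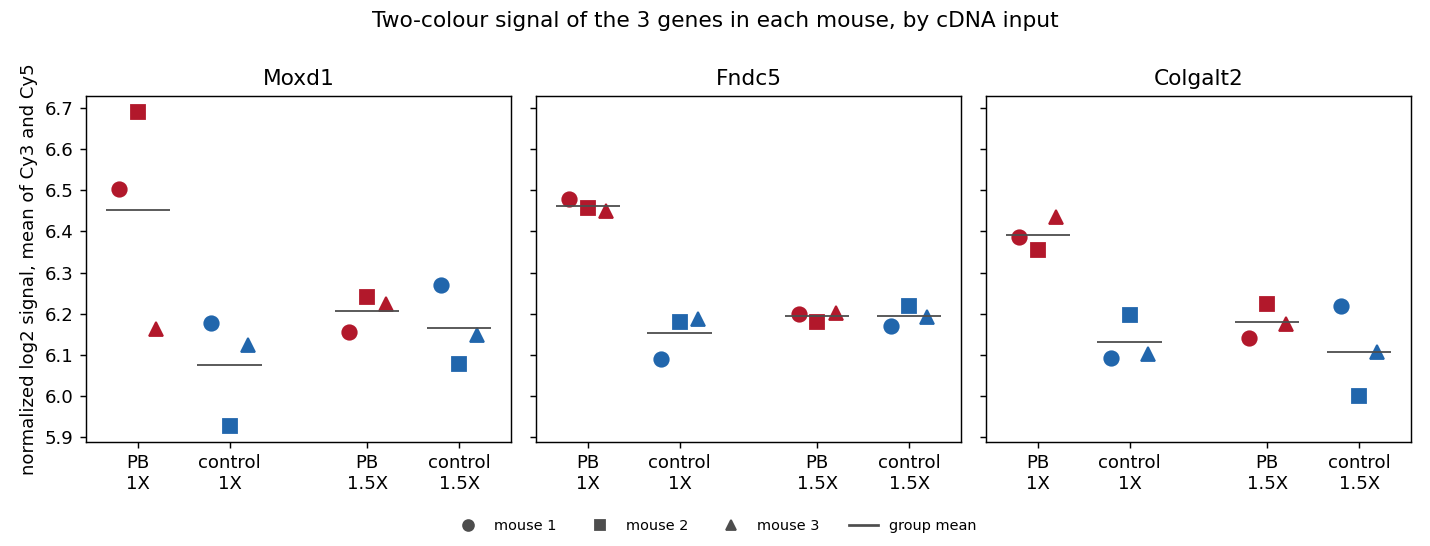
Normalized two-colour log2 signal (y axis, mean of both dyes) of each gene in each mouse, PB left of control, at 1X and 1.5X cDNA input, with bars at the group means. At 1X the Fndc5 and Colgalt2 groups do not overlap and PB mouse 3 lies among the control mice for Moxd1; at 1.5X the groups overlap for all 3 genes.

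Over the 12 one-colour arrays, with values centred within each input, Moxd1 and Fndc5 had a Pearson correlation of 0.91, Moxd1 and Colgalt2 of 0.70 and Fndc5 and Colgalt2 of 0.65. These are descriptions, since the genes were chosen for a shared difference and 2 arrays belong to each mouse. With the group means removed as well, the values were 0.52, 0.26 and -0.35. The genes with a symbol most like Fndc5, among 7557 well above background on all PB arrays, were Mad1l1, a spindle checkpoint gene (0.97), Cyp2c50, a P450 (0.96), and Gstm3, a glutathione transferase (0.96). Those most like Moxd1 were P2rx4, an ATP-gated ion channel (0.96), Gorasp1, a Golgi stacking protein (0.96), and Klhl25, an adaptor of ubiquitin ligation (0.95). Those most like Colgalt2 were 1810010H24Rik (0.95), Hectd3, a ubiquitin ligase (0.94), and Rps15a, a ribosomal protein (0.93). With the group means removed the correlations were 0.68, 0.61 and 0.44 for Mad1l1, Cyp2c50 and Gstm3 with Fndc5, and 0.91, 0.92 and 0.74 for P2rx4, Gorasp1 and Klhl25 with Moxd1. They were 0.94, 0.84 and 0.82 for 1810010H24Rik, Hectd3 and Rps15a with Colgalt2. All of these likenesses rest on the same arrays and share the scaling to the array's 75th percentile. Every Moxd1 control value in them, at both inputs, was set by the scanner software and is not a measured level. The same holds for Fndc5 in control mouse 3 at 1.5X.

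Among the other copper monooxygenases, Dbh, which makes noradrenaline, was not well above background on any of the 12 one-colour arrays. Moxd2 was called on 3 of 6 PB and 3 of 6 control arrays. Pam, the enzyme that amidates secreted peptides, was detected on all 12 and was the 1 gene of this list that was tested. Its log2 level was -1.60 in PB livers and -0.69 in control livers, a difference of -0.91 (SE 0.18) that did not pass (limma adjusted p = 0.0776). The Pam groups did not overlap. Such separation was found for 7.36% of genes in the opposite direction, and the share in the direction of Pam was not counted. At two-colour 1X its difference was -0.34 (SE 0.10, adjusted p = 0.0942), and without PB mouse 3 it was -0.44 (adjusted p = 0.0153). Without any other mouse the Pam difference was between -0.27 and -0.37 (limma adjusted p between 0.15 and 0.236).

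Of 9 genes of catecholamine synthesis, storage and breakdown, 5 were tested on one-colour arrays and none passed, beside 96 of 12809 genes (0.749%) among all tested. Their median log2 difference was -0.01, beside -0.02 over all genes, of which 1729 had an unadjusted p under 0.05. Maoa and Maob, which oxidize monoamines, were 0.37 (SE 0.22, limma adjusted p = 0.523) and -0.18 (SE 0.18, adjusted p = 0.714). Dbh and the noradrenaline transporter Slc6a2 were not detected on any one-colour array.

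Of 8 other genes of the fibronectin type III domain containing family, 3 were tested and none passed. Fndc4, the closest relative of Fndc5, was well above background in all livers, with a log2 level of -0.33 in PB livers and 0.02 in control livers, a difference of -0.35 (SE 0.17, limma adjusted p = 0.445). Fndc3a was 0.34 (SE 0.15, adjusted p = 0.365). Fndc3c1, Fndc7, Fndc8 and Fndc9 were not detected on any array. The median log2 difference of the 3 tested was 0.04. Fndc10, a further member of the family, is not in this list and was picked out after its values were seen. It was well above background on all PB and no control arrays at 1.5X, with a lower bound of 1.57-fold. Over both inputs its log2 level was 0.69 higher in PB livers (SE 0.30, limma adjusted p = 0.38), which did not pass.

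Of 9 genes upstream or downstream of irisin, 4 were tested on one-colour arrays and none passed. Ppargc1a, the coactivator that raises Fndc5 in muscle, was not higher in PB livers: its log2 level was -2.05 in PB livers and -1.29 in control livers, a difference of -0.75 (SE 0.24, limma adjusted p = 0.243). At two-colour 1X the Ppargc1a difference was -0.46 (SE 0.11, adjusted p = 0.0501), and it passed under 5 of 12 alternatives. These were without PB mouse 1 (-0.58, limma adjusted p = 0.0238), without the filter on dim probes (0.0418), with every probe on its own (0.0459), with the replicate block (0.0476) and with the scanner software's processed signals (-1.12, adjusted p = 0.0202). Esrra, a nuclear receptor that works with PGC-1alpha, was 0.34 (SE 0.15, adjusted p = 0.377). The integrin subunits Itgav and Itgb5, named as an irisin receptor, were 0.10 and 0.29. Ucp1, the uncoupling protein of brown fat, and Bdnf, a neurotrophin, were not detected on any array.

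Of 19 other genes of collagen lysine and proline modification and folding, 10 were tested and none passed, with a median log2 difference of -0.12. Colgalt1, the paralogue of Colgalt2, was detected on all 12 arrays at a log2 level of -2.56 in PB livers and -2.42 in control livers, a difference of -0.15 (SE 0.16, limma adjusted p = 0.733). P3h1, a prolyl hydroxylase of collagen, was 0.86 (SE 0.53, adjusted p = 0.54), and Pgghg, which removes glucose from glucosylgalactosyl-hydroxylysine, was -0.36 (SE 0.24, adjusted p = 0.569). Of 12 secreted or membrane proteins with collagen domains, 8 were tested and none passed, with a median of -0.15. C1qb and C1qc, subunits of the first complement component, were 0.40 (SE 0.29, adjusted p = 0.605) and -0.35 (SE 0.17, adjusted p = 0.43). Adiponectin (Adipoq), a hormone of fat, was detected on 3 of 6 PB and 1 of 6 control arrays.

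**Figure D4:**
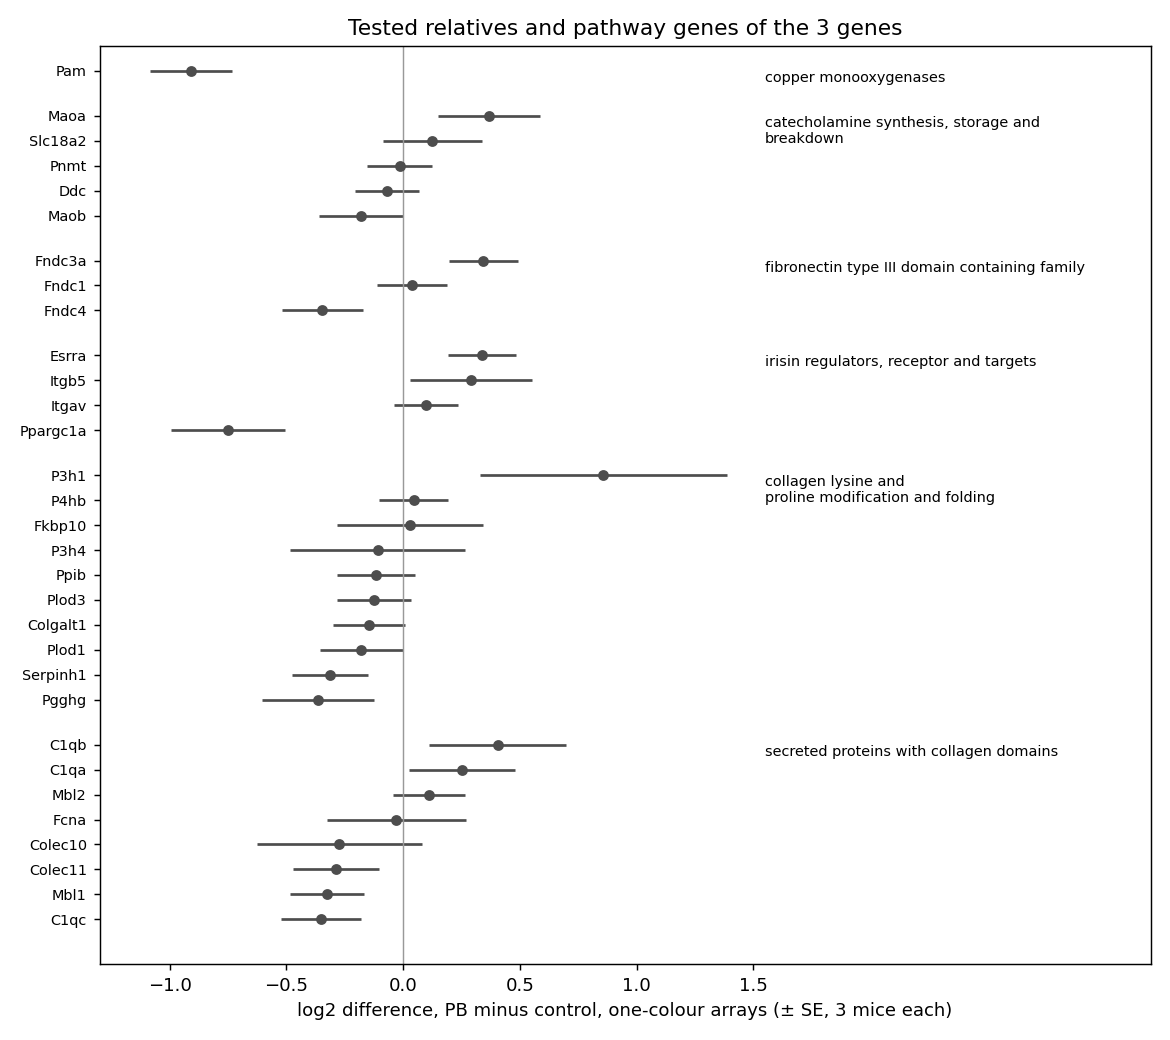
Log2 difference, PB minus control, on one-colour arrays (x axis) of each tested relative or pathway gene (rows, grouped by list), with bars of 1 SE (3 mice each). None of these genes passed; Pam lies lowest at -0.91 and P3h1 highest at 0.86 with the widest bar.

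Markers of other cell types were set beside these results, as summed signal relative to the array's 75th percentile, and in whole liver fewer cells of a type and less RNA per cell cannot be told apart. Beside Fndc5, 5 of 10 skeletal muscle markers (Ckm, Myh4, Mylpf, Myl1 and Actn3) were not detected on any one-colour array and 2 were detected on all. The log2 level of Tnni2, a troponin of fast muscle, was 0.06 in PB livers and -1.29 in control livers, a difference of 1.35 (SE 0.76, limma adjusted p = 0.505). Atp2a1, the calcium pump of fast muscle, was 0.33 (SE 0.22, adjusted p = 0.57). The 10 markers' summed level was 0.718 to 2.22 in PB livers and 0.473 to 1.21 in control livers. Beside Moxd1, 1 of 6 markers of chromaffin cells and neurons was detected on all arrays, with sums of 114 to 193 in PB livers and 128 to 131 in control livers, nearly all of it from Snap25. The log2 level of Snap25 was 7.26 in PB livers and 7.01 in control livers, so the sum follows this 1 gene. That is above the level of the hepatocyte marker Alb, 6.72 in PB livers and 6.89 in control livers. Whether this Snap25 probe reports these cell types in liver was not tested. Chgb was detected on 6 of 6 PB and 3 of 6 control arrays, with a difference of 0.82 (SE 0.33, limma adjusted p = 0.351). Beside Colgalt2, 6 of 10 markers of stellate cells and fibroblasts were detected on all arrays, with sums of 21.8 to 26.1 in PB livers and 17.9 to 22.6 in control livers. Pancreas genes, 6 of 8 detected on all arrays, varied most between mice, from 62.7 to 390.5 in PB livers and from 87.6 to 381 in control livers. Of 10 hepatocyte markers, all tested, none passed on one-colour arrays. At two-colour 1X 2 of the 10 passed, both lower in PB livers, beside 509 of 8259 genes (6.16%) in either direction. The sums were 498 to 660 in PB livers and 573 to 648 in control livers for hepatocytes. They were 0.401 to 0.714 in PB livers and 0.25 to 0.727 in control livers for fat, with Lep not detected. For endothelium they were 2.87 to 3.59 in PB livers and 3.46 to 4.04 in control livers. For Kupffer cells and macrophages they were 1.81 to 2.40 in PB livers and 1.71 to 2.05 in control livers, and for cholangiocytes 1.47 to 2.19 in PB livers and 0.974 to 1.93 in control livers. The sums overlapped between the groups for each list, and their part in the results was not tested.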

How the data were processed

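The authors extracted RNA from the blocks with a Qiagen FFPE kit, amplified it as cDNA (WTA2) and labelled it chemically (ULS), per the labels' protocols. The scanner tables as deposited give, per the file headers, each spot as intensity (processed and median signals) with flags of 0 or 1 (unit: other), among them the call of well above background. The deposited value table holds processed signals for the one-colour arrays and log10 ratios for the two-colour arrays. These were checked against the scanner files; 7 of the 14 two-colour columns used here run opposite to Cy5 over Cy3, and their ratios were all turned to PB over control. The 62976 spots include 3671 controls, which were left out, as were spots with an outlier flag.

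Probes were named through RefSeq accessions (GRCm38.p6, names only; 27235 of 55681 probes, 20660 symbols). Where a gene name had several probes, the brightest one-colour probe was used. One-colour values are log2 processed signals minus the 75th percentile of probes detected on all arrays of a set. Two-colour values come from median signals after normexp (offset 50), loess of span 0.3 and Aquantile. A gene was tested if detected on all arrays of at least 1 exposure group. Arrays of a mouse were averaged (n = 3 mice per group) and tested with limma 3.58.1 in R 4.3.3, Benjamini-Hochberg adjusted at 0.05. On simulated data with 200 changed genes, 4-fold changes were found at 88.5% over both one-colour inputs (12798 genes), 99.5% at two-colour 1X (8258 genes) and 87.5% at two-colour 1.5X (1662 genes), and 2-fold changes at 44.5%, 95.5% and 47.0%. The changes were added to the normalized values of genes that entered each test. On two-colour arrays they are therefore steps on the offset scale, where dim spots differ by less than the ratio of their signals. None of Moxd1, Fndc5 and Colgalt2 was among the two-colour genes simulated.

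The 3 genes and all gene lists were chosen with earlier results of these data known. From each list of relatives or pathway genes, genes past the threshold in a comparison and the 2 tested genes with the largest one-colour change are named. Further members are named by detection. This rule was not applied to the cell type markers. Likeness is Pearson's correlation over 12 one-colour arrays. Two-colour 1X arrays 4 and 8 entered no comparison, since their description and channel labels give opposite dyes; on arrays 3, 5, 6 and 7 mouse numbers follow the description, with the source names as an alternative. Each set is 1 slide holding both groups; input, slide and scan session cannot be told apart within a format. Probe sequences were not used here. The result of 1 gene of these lists is not reported here.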

Additional observations from a re-analysis of the deposited data

Results flagged for a closer look

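On 2 two-colour 1X arrays the labels do not settle which dye carried which exposure, so their values stand outside the comparisons. They were set against the highest control signal of the same dye and gene on the other 1X arrays. Only spots above that signal are listed, and all other spots of these genes on the 2 arrays lay below it. The Fndc5 signals in Cy5, for example, were 33.5 on array 4 and 39.4 on array 8, against 95.6. On array 4 the Moxd1 signal was 204 in Cy5, against a highest control value of 38.6, and this spot was not called well above background. On array 8 the Cy3 signals were 105.1 for Fndc5, 71.7 for Moxd1 and 69.1 for Colgalt2, against highest control values of 31.8, 33.5 and 52.1, and only the Fndc5 spot was called well above background. The Moxd1 signal in Cy5 on array 8 was 38.9, which is barely above 38.6. These are single spots without a replicate.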

How the results depend on the processing

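The lower bounds on the fold moved by less than the spread between mice under the alternatives run, except that normexp with quantile normalization gave 1.98-fold for Colgalt2 at 1.5X. That setting also gave 1.88-fold for Fndc5 at 1.5X. At 1X it gave 1.34-fold for Fndc5 and 1.93-fold for Moxd1, both lower than the bounds given above. Without any 1 mouse the bounds ranged over 1.63 to 1.84 for Colgalt2 at 1.5X, 2.31 to 3.40 for Moxd1 at 1X, 1.54 to 1.95 for Fndc5 at 1X and 1.34 to 1.89 for Fndc5 at 1.5X. Without the filter on dim probes Fndc5 passed at two-colour 1X, and of 10 tested alternatives to that fit it passed in 1, the replicate block (adjusted p = 0.047). Near 0 at 1.5X, Fndc5 (-0.0004) had the opposite sign without PB replicate 2 (0.0062), without control replicate 2 (0.0125), with the scanner software's processed signals (0.0342) and in Cy3 alone (0.0287), and Moxd1 without control replicate 2 (-0.0025); without 1 mouse Fndc5 ranged from -0.0119 to 0.0125 and Moxd1 from -0.0025 to 0.0938. Esrra at two-colour 1X (0.0428) was -0.0553 with processed signals and from -0.0373 to 0.1172 without 1 mouse, negative without PB replicate 1. Maob there (0.0287) ranged from -0.0043 to 0.0915 without 1 mouse, negative without PB replicate 1 and without PB replicate 2 (-0.0013). Mice of the same number deviated together with correlations of 0.052, -0.123 and 0.283 on one-colour arrays, 0.276, -0.032 and 0.38 at two-colour 1X and 0.138, -0.278 and 0.333 at 1.5X. Whether they share more than a number was not tested. The replicate block moved the genes passing on one-colour arrays from 96 to 37 and at two-colour 1X from 509 to 717, and let Pam (adjusted p = 0.0478) and Ppargc1a (0.0476) pass at two-colour 1X. Of 3 PB mice, 1 on one-colour arrays, 2 at two-colour 1X and 1 at 1.5X correlated best with the control mouse of their own number. The one-colour count was 28 without the filter, 147 with normexp and quantile normalization, 397 with the slide as a block and 282 with the slide row as a block; leaving out 1 mouse gave 10 to 101. At two-colour 1X it was 100 with mice by the source names and 136 in Cy3 alone, and 213 to 647 without 1 mouse. At two-colour 1.5X it was 15 in Cy3 alone, where 15589 genes were tested, and 0 to 0 without 1 mouse. The causes were not tested. Dim spots limit the values of the 3 genes: at one-colour 1X the raw Moxd1 medians of 63, 56.5 and 80 in control mice stood beside negative controls of 66, 67 and 80.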
